A study of Mus musculus with 21 samples.

Results

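Expression of 10 genes of melanocytes and their pigment was followed in 3 mouse models of basal cell carcinoma (BCC), a tumour of the epidermis driven by Hedgehog signalling. They were chosen by name, and all 10 of 10 were found among the 23713 genes of the count table: the enzymes of melanin synthesis Tyr, Tyrp1 and Dct, the melanosome proteins Pmel, Mlana and Slc45a2, the transcription factor Mitf, the receptors Kit and Mc1r, and Kitl, which encodes the ligand of Kit. The labels name the models SmoM2, Gnas-eKO and PKI. In each model RNA from the tail skin of 4 tumour-bearing mice (BCC) was set against 3 tumour-free mice (Con), which gave 21 libraries. Tumours had been induced 29 days earlier in the SmoM2 mice, 42 days earlier in the Gnas-eKO mice and 57 days earlier in the PKI mice. The labels call the cells keratinocytes, but the protocol scraped whole epidermis and strained it without a sort, so melanocytes of the epidermis could be carried along. Alleles, Cre drivers, mouse strain, coat colour, sex and age are not given in the labels, nor is the genotype of the Con mice. A batch letter (A, B or C) goes with each model, so model, batch and day cannot be told apart. In SmoM2 the 4 BCC mice have names with a different prefix from the 3 Con mice, so the origin of the mice may not be separable from the tumour there.

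Melanocytes are neural crest cells that make melanin in membrane-bound granules, the melanosomes, and pass these to keratinocytes. Tyrosinase (Tyr) carries out the rate-limiting step of melanin synthesis, and Tyrp1 and Dct act on later intermediates. Mitf, the master regulator of the lineage, binds short CATGTG elements in the promoters of these enzymes. Mc1r raises cyclic AMP through the stimulatory G protein encoded by Gnas, and protein kinase A then raises Mitf. Kit on melanocytes responds to Kit ligand made by keratinocytes, which keeps melanocytes alive and in the epidermis of tail skin.

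The libraries held 16645858 to 22251132 counts, and the lowest count of any of the 10 genes in any library was 15. Ptch1, a target gene of Hedgehog signalling, stood at 30.0 to 42.9 CPM (counts scaled to the size of the library) in the 9 Con libraries and at 209 to 1061 CPM in the 12 BCC libraries. Gnas stood at 172 to 178 CPM in Gnas-eKO Con and at 51.1 to 115 CPM in Gnas-eKO BCC. Gnas-eKO BCC replicate 2 lay nearest to the Con libraries on the main axis of variation (-20.4, against 32.4 to 59.4 for the other 11 BCC libraries and -57.2 to -40.4 for Con), and Gnas-eKO results of the 10 genes whose direction changes without it are given both ways. For the other gene lists its effect on the counts is given after them. The 6 melanocyte genes Dct, Pmel, Tyr, Tyrp1, Mlana and Slc45a2 were above their counting floor in every library, beside keratinocyte markers of 23735 to 68470 summed CPM. Of 9 mast cell markers, which would mark another Kit-expressing cell, 3 were measured, and their summed level was at most 1.96 CPM in any library. Nothing beyond the animal names in the headers says that the libraries of a group came from separate mice, so p-values measure the spread between these libraries.

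The promoters of 7 of the 10 genes were matched in RefSeq (build GRCm38.p6, 10 windows), and 4 of the 7 held the Mitf-type element CATGTG, or CACATG as it reads on the other strand, within the 250 bases before the RefSeq start. They are shown because these 4 genes, Tyr, Tyrp1, Dct and Mc1r, were among the genes lower in PKI tumours. Mitf and Kitl were also called lower there, and their windows held no such element. Capitals mark the element, and each sequence is written in the direction of transcription. The windows lie at chr7:87493513-87493762 (Tyr, minus strand), chr4:80833963-80834212 (Tyrp1, plus strand), chr14:118052247-118052496 (Dct, minus strand) and chr8:123406832-123407081 (Mc1r, plus strand).
Tyr: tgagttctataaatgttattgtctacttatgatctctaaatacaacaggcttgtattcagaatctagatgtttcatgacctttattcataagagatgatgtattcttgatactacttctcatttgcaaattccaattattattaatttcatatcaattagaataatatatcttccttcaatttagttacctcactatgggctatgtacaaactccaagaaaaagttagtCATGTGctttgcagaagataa
Tyrp1: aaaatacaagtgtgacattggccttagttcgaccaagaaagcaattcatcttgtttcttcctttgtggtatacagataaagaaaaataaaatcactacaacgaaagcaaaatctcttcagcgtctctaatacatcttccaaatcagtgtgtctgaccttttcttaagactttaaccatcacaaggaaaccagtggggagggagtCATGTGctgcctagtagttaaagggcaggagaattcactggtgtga
Dct: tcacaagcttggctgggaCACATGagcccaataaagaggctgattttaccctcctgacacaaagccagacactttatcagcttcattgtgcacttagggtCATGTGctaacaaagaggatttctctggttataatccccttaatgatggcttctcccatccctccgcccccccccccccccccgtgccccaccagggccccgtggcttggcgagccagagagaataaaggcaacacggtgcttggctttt
Mc1r: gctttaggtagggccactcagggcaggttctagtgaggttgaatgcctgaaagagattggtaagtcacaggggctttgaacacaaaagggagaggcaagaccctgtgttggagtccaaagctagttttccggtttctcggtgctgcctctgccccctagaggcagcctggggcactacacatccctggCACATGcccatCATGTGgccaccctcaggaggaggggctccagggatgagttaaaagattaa
The element lay 21 to 16 bases before the start in Tyr and 46 to 41 bases before it in Tyrp1. Dct held it at 232 to 227 and at 150 to 145 bases, and Mc1r at 62 to 57 and at 51 to 46 bases. All 4 also held the 7-letter M-box TCATGTG on one strand or the other, which contains CATGTG. Of 32851 RefSeq promoter windows of the same length, 12.3% held CATGTG and 3.25% held TCATGTG, on either strand. The windows of Kit, Mitf and Kitl held neither motif, which says only that these letters are absent from those windows. A match is a description and not a bound site. Pmel, Mlana and Slc45a2 had no entry.

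In tumour-free epidermis the pigment genes spanned a wide range of levels. Per kilobase of exon, over the 9 Con libraries, Pmel, which builds the fibrils of the melanosome, was highest at 18.8 ± 3.78 CPM (SD, n = 9). Tyrp1 followed at 13.4 ± 3.53, Dct at 10.1 ± 2.34, Kitl at 5.03 ± 1.16 and Mlana, a melanosome protein, at 4.26 ± 1.63 CPM per kilobase. Mitf stood at 2.54 ± 0.447 and Tyr at 1.83 ± 0.357, and Mc1r, Kit and the melanosome transporter Slc45a2 were lowest at 1.06 ± 0.24, 1.03 ± 0.252 and 0.606 ± 0.0967 CPM per kilobase. Most neighbours in this order overlapped over the 9 libraries, such as Pmel (12.4 to 24.0) with Tyrp1 (9.28 to 18.9) and Mc1r (0.732 to 1.49) with Kit (0.721 to 1.499). Tyrosinase RNA was thus below that of the other melanin enzymes in each of the 9 libraries, its highest value being 2.41 against a lowest of 6.91 CPM per kilobase for Dct. Part of the Pmel value is uncertain, because its exons overlap those of Cdk2 and Dgka on the other strand, and it is not stated whether the counts used strand. No member differed among the 3 Con groups (edgeR, quasi-likelihood test, Benjamini-Hochberg adjusted p from 0.608 to 0.929), against 1.64% of 16298 genes tested.

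BCC was compared with Con within each model, over all genes tested, and a gene was called at an adjusted p under 0.05. In SmoM2, 3 of the 10 genes were lower in BCC (Tyr, Mlana and Kit) and 0 were higher, where 13.5% of all genes tested were called lower and 16.2% higher. In Gnas-eKO 0 were called in either direction by edgeR, where 0.165% of genes were called lower and 1.46% higher. At an unadjusted p under 0.05 stood 1 of the 10 (Mitf, higher), beside 19.6% of all genes tested, so this count was below the background. In PKI 7 of the 10 were lower (Dct, Pmel, Tyr, Tyrp1, Mitf, Mc1r and Kitl) and 0 were higher, against 15.8% lower and 18.7% higher among all genes. The median log2 fold change of the 10 genes was -0.29 for SmoM2, -0.06 for Gnas-eKO and -0.75 for PKI, beside 0.00, 0.02 and -0.00 over all genes tested. The BCC libraries lay wholly below the Con libraries for 3 members in SmoM2 mice, 0 in Gnas-eKO mice and 8 in PKI mice, a pattern met by 19.2%, 9.7% and 20.8% of all genes in those models. Tyr was the 1 member called lower in both SmoM2 and PKI. Without SmoM2 Con replicate 1, 5 members were called in SmoM2, Dct and Pmel being added, beside 4627 of 16802 genes in either direction. Without Gnas-eKO BCC replicate 2 the number of members called in Gnas-eKO was still 0, although 1910 of 16195 genes were then called, against 267 of 16409 with it. In bulk RNA of this kind, fewer melanocytes and less RNA per melanocyte cannot be told apart.

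**Figure D1:**
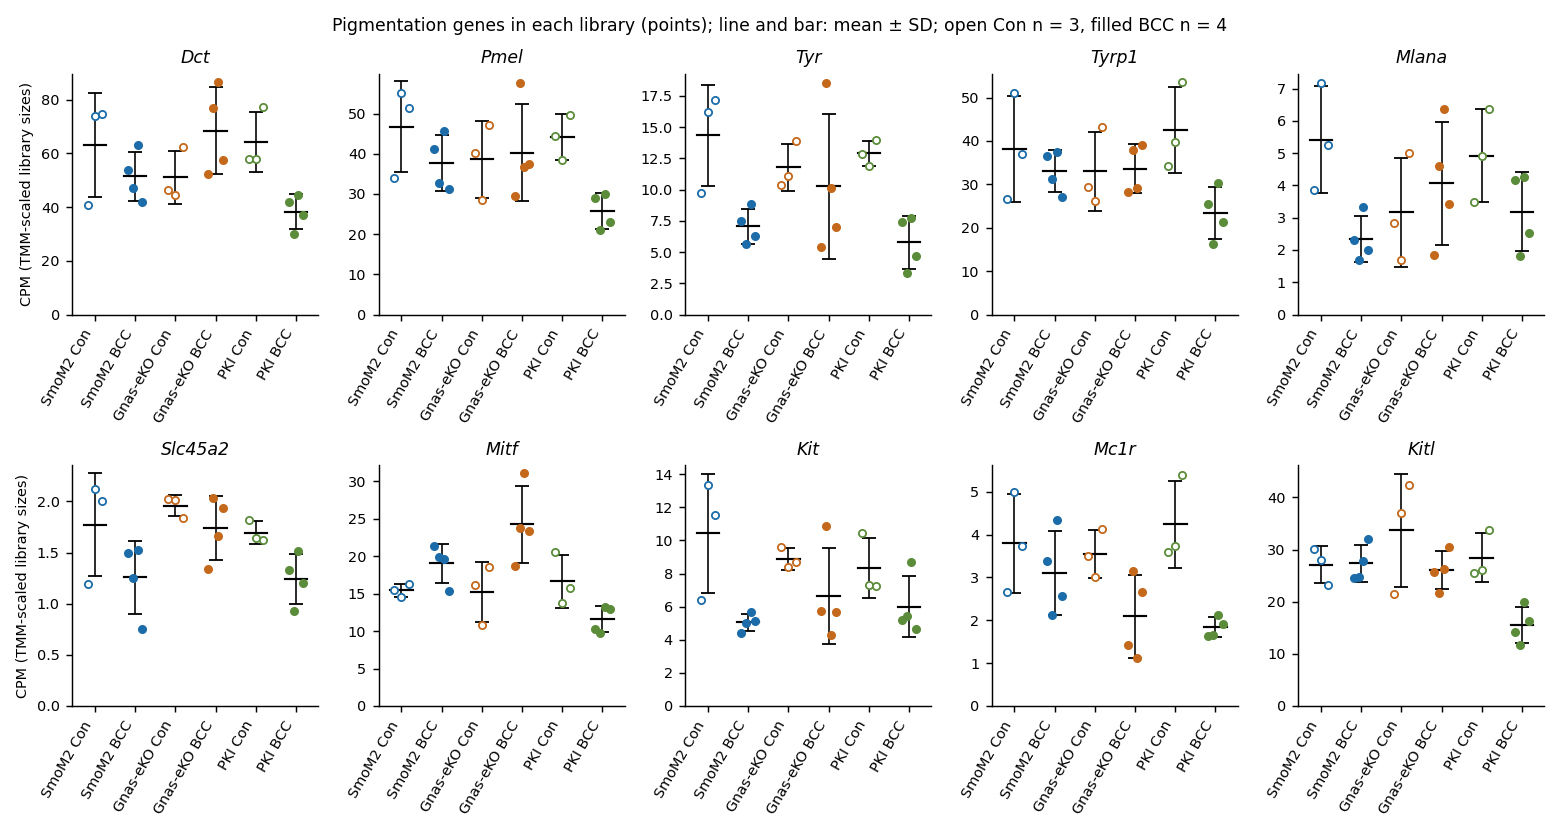
Level of each of the 10 genes in CPM (y axis, linear from 0, scaled separately for each gene) in every library of the 3 models (x axis). Points are libraries (open Con, filled BCC), horizontal lines are group means and bars their SD, for 3 Con and 4 BCC libraries per model. In PKI 8 of the 10 genes lie wholly below their Con libraries, while in Gnas-eKO 0 do.

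Among the 3 melanin enzymes, tyrosinase was called lower in both SmoM2 and PKI. Tyr (ENSMUSG00000004651.6, GRCm38 chromosome 7, 87424771 to 87493512, minus strand) stood at 9.73, 16.2 and 17.1 CPM in SmoM2 Con and at 7.45, 5.64, 8.84 and 6.29 CPM in SmoM2 BCC. The groups did not overlap, and the log2 fold change was -1.005 (edgeR, SE 0.22, adjusted p = 0.00754). In PKI it stood at 12.9, 11.9 and 13.9 CPM in Con and at 7.44, 3.35, 7.69 and 4.66 CPM in BCC. Every tumour library was again below every control, with a log2 fold change of -1.14 (edgeR, SE 0.26, adjusted p = 0.0101). In Gnas-eKO, Con held 10.4, 11.1 and 13.9 CPM and BCC 5.40, 18.5, 10.1 and 7.01 CPM. There 3 of the 4 BCC libraries were below every Con library and BCC replicate 2 was above them. The log2 fold change was -0.19 (edgeR, SE 0.39, adjusted p = 0.825), and -0.64 without that library (edgeR adjusted p = 0.166).

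Dct, the dopachrome tautomerase (ENSMUSG00000022129.4, chromosome 14, 118012790 to 118052244, minus strand), was called lower in PKI. Its PKI Con libraries stood at 57.8, 58.0 and 77.1 CPM and its PKI BCC libraries at 41.8, 29.9, 44.6 and 36.9 CPM, with no overlap. The log2 fold change was -0.74 (edgeR, SE 0.15, adjusted p = 0.00627). In SmoM2 the Con libraries stood at 40.7, 74.1 and 74.7 CPM and the BCC libraries at 53.7, 47.0, 63.3 and 41.9 CPM. Con replicate 1 lay below every BCC library, and the log2 fold change was -0.28 (edgeR adjusted p = 0.432). In Gnas-eKO the tumour libraries, at 52.2, 77.0, 86.7 and 57.5 CPM, overlapped the controls at 46.3, 44.4 and 62.5 CPM, 2 of the 4 lying above them all, with a log2 fold change of 0.43 (edgeR, SE 0.21, adjusted p = 0.293).

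Tyrp1, which oxidises a late melanin intermediate (ENSMUSG00000005994.14, chromosome 4, 80834123 to 80851719, plus strand), stood at 34.3, 39.8 and 53.5 CPM in PKI Con and at 25.4, 16.1, 30.4 and 21.4 CPM in PKI BCC. The groups did not overlap and the log2 fold change was -0.85 (edgeR, SE 0.23, adjusted p = 0.0208). This call was lost without PKI Con replicate 3 (edgeR adjusted p = 0.0705) or without PKI BCC replicate 4 (edgeR adjusted p = 0.0518). In the other two models the Tyrp1 groups overlapped, from 26.7 to 51.0 CPM in Con and 27.1 to 37.4 CPM in BCC of SmoM2, and from 26.2 to 43.3 and 28.3 to 39.0 CPM in Gnas-eKO. Its log2 fold change in Gnas-eKO was 0.04, or -0.02 without BCC replicate 2, uncalled by edgeR either way.

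Among the melanosome proteins, Pmel was called lower in PKI and Mlana in SmoM2, but neither effect was shown to differ between these models (PKI minus SmoM2 -0.47 for Pmel and 0.59 for Mlana, edgeR adjusted p = 0.21 and 0.387). Pmel (ENSMUSG00000025359.10, chromosome 10, 128704195 to 128720238, plus strand) stood at 44.5, 38.4 and 49.8 CPM in PKI Con and at 29.1, 21.0, 30.0 and 23.0 CPM in PKI BCC. The BCC libraries were all lower, with a log2 fold change of -0.77 (edgeR, SE 0.14, adjusted p = 0.0036). In SmoM2 Pmel overlapped between 34.0 to 55.0 CPM in Con and 31.2 to 45.7 CPM in BCC, and its log2 fold change in Gnas-eKO was 0.07 (SE 0.25), or -0.15 without BCC replicate 2, uncalled by edgeR either way. Mlana, also known as Melan-A (ENSMUSG00000024806.4, chromosome 19, 29697824 to 29708634, plus strand), stood at 3.86, 7.17 and 5.24 CPM in SmoM2 Con and at 2.30, 1.69, 3.33 and 2.01 CPM in SmoM2 BCC. Those groups did not overlap, and the log2 fold change was -1.19 (edgeR, SE 0.29, adjusted p = 0.0113). The call was lost without SmoM2 Con replicate 2 (edgeR adjusted p = 0.0579). In PKI the Mlana libraries overlapped, at 3.49, 4.92 and 6.36 CPM in Con and 4.16, 1.81, 4.27 and 2.52 CPM in BCC. The log2 fold change there was -0.61 (edgeR, SE 0.33, adjusted p = 0.188). In Gnas-eKO it was 0.36 (edgeR, SE 0.48, adjusted p = 0.735), with 1.68 to 5.00 CPM in Con and 1.85 to 6.36 CPM in BCC. Slc45a2 (ENSMUSG00000022243.10, chromosome 15, 11000721 to 11029233, plus strand) ranged from 0.755 to 2.12 CPM over all 21 libraries and was not called in any of the 3 models by edgeR. Its log2 fold changes were -0.47, -0.16 and -0.43 in SmoM2, Gnas-eKO and PKI.

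Mitf was called lower in PKI tumours, while its log2 fold changes in the other models were above 0. Mitf (ENSMUSG00000035158.15, chromosome 6, 97807052 to 98021349, plus strand) stood at 20.5, 13.7 and 15.7 CPM in PKI Con and at 10.3, 9.80, 13.2 and 12.9 CPM in PKI BCC. The highest BCC library lay just below the lowest Con library, with a log2 fold change of -0.52 (edgeR, SE 0.17, adjusted p = 0.0396). This call was held in 3 of the 7 fits that each leave out 1 PKI library, where the log2 fold change ran from -0.64 to -0.34. It was lost without Con replicate 1 (edgeR adjusted p = 0.161), Con replicate 3 (0.0772), BCC replicate 1 (0.0801) or BCC replicate 2 (0.0923). In Gnas-eKO Mitf stood at 16.2, 10.8 and 18.6 CPM in Con and at 18.7, 23.8, 31.1 and 23.4 CPM in BCC. The lowest BCC library lay just above the highest Con library (18.683 against 18.588 CPM). The test over all genes was not passed (log2 fold change 0.68, edgeR, SE 0.23, adjusted p = 0.155). A fit of all 21 libraries together gave an adjusted p of 0.0237 for the same difference, with a log2 fold change of 0.67. In SmoM2 the Con libraries stood at 15.4, 14.5 and 16.3 CPM and the BCC libraries at 21.4, 19.9, 19.6 and 15.4 CPM. There 3 of 4 tumour libraries were above the controls, with a log2 fold change of 0.32 (edgeR, SE 0.13, adjusted p = 0.0837), and without SmoM2 BCC replicate 4 the difference was called (0.41, edgeR adjusted p = 0.0215). Mitf is also transcribed from other promoters outside melanocytes, and the counts are per gene, so its isoforms were not separated.

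Of the receptors, Kit was called lower in SmoM2 and Mc1r in PKI, but neither effect was shown to differ between these models (PKI minus SmoM2 0.56 for Kit and -0.92 for Mc1r, edgeR adjusted p = 0.276 and 0.0989). Kit (ENSMUSG00000005672.12, chromosome 5, 75574916 to 75656722, plus strand) stood at 6.43, 13.4 and 11.5 CPM in SmoM2 Con and at 4.43, 5.02, 5.69 and 5.14 CPM in SmoM2 BCC. The groups did not overlap and the log2 fold change was -1.02 (edgeR, SE 0.23, adjusted p = 0.00895). Mast cell markers summed to at most 0.344 CPM in those Con libraries and 0.531 CPM in those BCC libraries. In PKI Kit overlapped, at 7.26 to 10.4 CPM in Con and 4.66 to 8.72 CPM in BCC (log2 fold change -0.46, edgeR, SE 0.24, adjusted p = 0.171), and it was called without PKI BCC replicate 3 (-0.70, edgeR adjusted p = 0.0285). In Gnas-eKO the log2 fold change of Kit was -0.41 (edgeR, SE 0.31, adjusted p = 0.506), and without BCC replicate 2 it was -0.75 (edgeR adjusted p = 0.0556).

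Mc1r, the melanocortin receptor (ENSMUSG00000074037.3, chromosome 8, 123407107 to 123410744, plus strand), was called lower in PKI by about as much as Tyr. It stood at 3.60, 3.72 and 5.40 CPM in PKI Con and at 1.64, 1.65, 2.13 and 1.92 CPM in PKI BCC. The groups were well apart, with a log2 fold change of -1.19 (edgeR, SE 0.24, adjusted p = 0.00516). In Gnas-eKO it stood at 3.50, 3.02 and 4.14 CPM in Con and at 1.43, 3.16, 1.12 and 2.66 CPM in BCC. BCC replicate 2 was the 1 tumour library within the Con range, and the log2 fold change was -0.75 (edgeR, SE 0.39, adjusted p = 0.327), or -1.01 without it (edgeR adjusted p = 0.137). In SmoM2 the Mc1r groups overlapped, with a log2 fold change of -0.27 (edgeR, SE 0.30, adjusted p = 0.554). Mc1r overlaps other annotated transcripts, Gm20388 and Gm38092, so reads may be split among them.

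Kitl, whose product in skin comes mainly from keratinocytes rather than melanocytes (ENSMUSG00000019966.18, chromosome 10, 100015630 to 100100416, plus strand), was called lower in PKI, and that effect differed from the one in SmoM2 by the test given further on. In PKI it stood at 25.6, 26.0 and 33.8 CPM in Con and at 14.3, 11.7, 20.0 and 16.2 CPM in BCC. Every tumour library was below every control, with a log2 fold change of -0.86 (edgeR, SE 0.18, adjusted p = 0.00626). In SmoM2 it stood at 30.0, 28.035 and 23.2 CPM in Con and at 24.6, 24.8, 27.9 and 32.1 CPM in BCC, groups that overlapped throughout, with a log2 fold change of 0.03 (edgeR, SE 0.12, adjusted p = 0.897). In Gnas-eKO the Con libraries ranged from 21.5 to 42.4 CPM and the BCC libraries from 21.6 to 30.5 CPM (log2 fold change -0.36, edgeR, SE 0.23, adjusted p = 0.429).

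**Figure D2:**
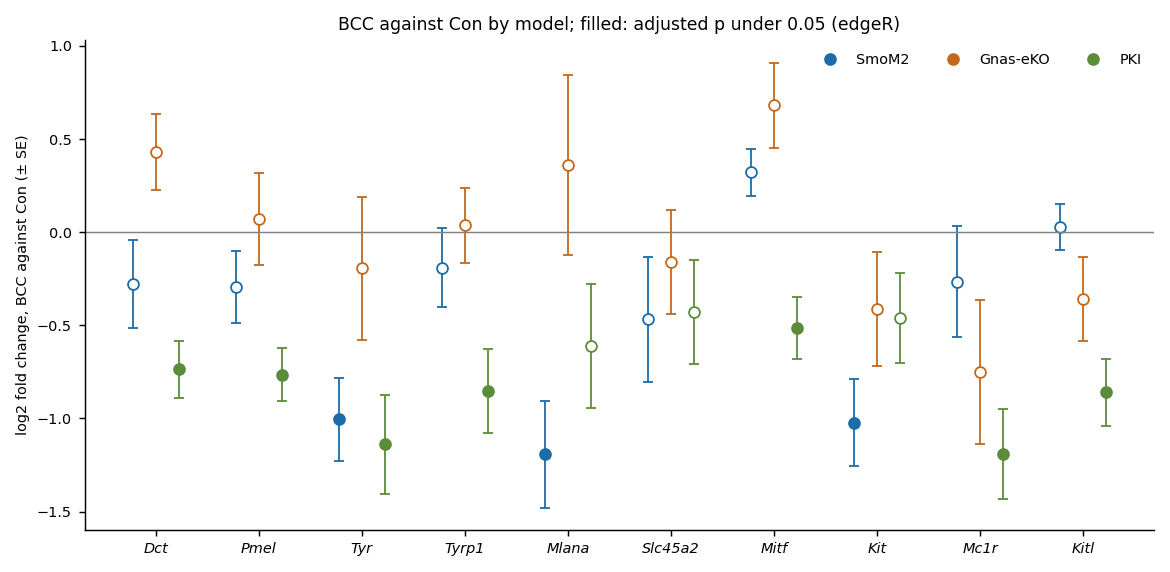
Log2 fold change of BCC against Con for each of the 10 genes (x axis, genes; y axis, log2 fold change, with bars of SE) in SmoM2, Gnas-eKO and PKI, one colour each; filled points passed the adjusted threshold in edgeR and open points did not. In PKI the values of all 10 genes lie below 0, from -1.19 for Mc1r to -0.43 for Slc45a2.

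Cell type markers differed between BCC and Con alongside these genes, and their part in the results was not tested. Summed leukocyte markers stood at 20.2 to 26.3 CPM in PKI Con and at 51.3 to 84.7 CPM in PKI BCC, and 5 of 6 were called higher (Ptprc, Cd52, Tyrobp, Cd207 and Cd3e). The shares of all genes called, given above, apply to the counts in this paragraph: 18.7% higher and 15.8% lower for PKI, 16.2% and 13.5% for SmoM2, and 1.46% and 0.165% for Gnas-eKO. Summed markers of hair follicle matrix and sheath, 5 of 6 measured, stood at 87.8 to 256 CPM in Con and 773 to 926 CPM in BCC of PKI, with 4 called higher. In SmoM2 this sum stood at 170 to 318 CPM in Con and 82.0 to 176 CPM in BCC, with Lef1 called higher and Hoxc13 lower. Summed fibroblast markers of PKI stood at 15.8 to 43.5 CPM in Con and 84.4 to 145 CPM in BCC. Most of this was Dcn, at 18.5 CPM in Con and 88.3 CPM in BCC on average, and 3 of 6 were called higher (Col3a1, Dcn and Lum). Mast cell markers summed to at most 0.405 CPM in PKI Con, where Mcpt4 was at 0, and to 1.26 to 1.96 CPM in PKI BCC. The 1 mast cell marker tested in PKI, Gata2, went from 0.0506 to 1.08 CPM on average, so this sum rests mostly on 1 gene. Whether mast cells differed was not tested. The summed keratinocyte markers overlapped, from 43830 to 60903 CPM in Con and from 40789 to 68470 CPM in BCC of PKI. The sum hid changes in both directions there. In PKI 2 of the 6 were called higher (Krt1, 1.80, and Dsg3, 0.47) and 1 lower (Krt5, -0.24), with a median log2 fold change of -0.07. The summed keratinocyte markers were lower in every BCC library of SmoM2 (47723 to 64477 CPM in Con, 32369 to 47348 in BCC) and of Gnas-eKO (49705 to 60747 in Con, 23735 to 43052 in BCC). In SmoM2 3 of the 6 were called lower (Krt5, Krt14 and Krt10) and 2 higher (Trp63 and Dsg3), with a median log2 fold change of 0.08, and in Gnas-eKO 0 of 6 were called by edgeR. In SmoM2 the summed leukocyte markers stood at 20.1 to 28.8 CPM in Con and 11.8 to 17.6 CPM in BCC, but 1 of 6 was called lower (Itgam, 12.0 to 4.04 CPM on average) and the median log2 fold change of the 6 was 0.13. There, summed fibroblast markers stood at 17.1 to 39.8 CPM in Con and 387 to 525 CPM in BCC, most of it Dcn, with 2 of 6 called higher (Col1a2 and Dcn). In Gnas-eKO the leukocyte sums overlapped (26.5 to 30.8 CPM in Con, 12.6 to 32.1 CPM in BCC), and the fibroblast sums stood at 15.9 to 27.4 and 94.2 to 579 CPM.

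The difference between models was tested directly, as the difference of the BCC effects. Between PKI and SmoM2, 2 of the 10 genes differed, where 24.9% of 17261 genes did. Mitf was changed by -0.84 more on the log2 scale in PKI (edgeR, SE 0.22, adjusted p = 0.0129) and Kitl by -0.89 more (edgeR, SE 0.23, adjusted p = 0.0134), and both were called in all 14 fits that leave out 1 library. Between PKI and Gnas-eKO, 2 of 10 differed, where 9.06% of 17254 genes did. The difference was -1.17 for Dct (edgeR, SE 0.27, adjusted p = 0.0193) and -1.20 for Mitf (edgeR, SE 0.29, adjusted p = 0.0235), and each was called in 11 of 14 such fits. The Dct call was lost without Gnas-eKO Con replicate 1 (edgeR adjusted p = 0.056), Gnas-eKO Con replicate 2 (0.0628) or PKI Con replicate 3 (0.0589). The Mitf call was lost without Gnas-eKO Con replicate 2 (edgeR adjusted p = 0.0645), PKI Con replicate 1 (0.0698) or PKI BCC replicate 2 (0.0527). Between Gnas-eKO and SmoM2, 0 of 10 differed by edgeR, where 0.175% of 17151 genes did. At an unadjusted p under 0.05 stood 2 of 10 (Dct and Mlana), beside 8.74% of all genes tested. For Tyr the difference of PKI minus SmoM2 was -0.13 with an SE of 0.38 (edgeR adjusted p = 0.83), an error too wide to call the falls alike. The PKI libraries enter both differences that involve PKI, so these are not separate evidence of one another.

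Levels relative to Dct describe the make-up of the pigment transcripts within a library and do not depend on how libraries are scaled. This ratio was chosen after the values had been seen and is given without a test. For every 100 counts of Dct, the 9 Con libraries held 18.1 to 24.9 counts of Tyr. In SmoM2 BCC this was 13.9, 12.0, 14.0 and 15.0, in Gnas-eKO BCC 10.3, 24.0, 11.7 and 12.2, and in PKI BCC 17.8, 11.2, 17.2 and 12.6. Of the 12 BCC libraries 11 thus lay below every Con library, though 2 of PKI only just, and Gnas-eKO BCC replicate 2 lay among the Con libraries. Mlana per 100 Dct separated in SmoM2, at 7.02 to 9.67 in Con and 3.59 to 5.27 in BCC, and overlapped in PKI, at 6.04 to 8.49 and 6.04 to 9.94. Pmel, Tyrp1 and Mitf per 100 Dct overlapped between BCC and Con in SmoM2 and in PKI. In Gnas-eKO these and Mlana overlapped as well, with Pmel at 64.0 to 86.7 in Con and 42.3 to 74.8 in BCC. Tyrp1 stood there at 59.1 to 69.3 in Con and 33.7 to 67.8 in BCC. Over the 3 models, 3 of 12 BCC libraries for Pmel and 2 of 12 for Tyrp1 lay below every Con library. Dct had an uncalled log2 fold change of 0.43 in Gnas-eKO, so the ratios there, that of Tyr included, also depend on Dct. The summed level of the 6 melanocyte genes Dct, Pmel, Tyr, Tyrp1, Mlana and Slc45a2 was 155 to 202 CPM in PKI Con and 73.1 to 118 CPM in PKI BCC. In SmoM2 it was 116 to 206 and 109 to 160 CPM, and in Gnas-eKO 114 to 174 and 119 to 198 CPM.

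**Figure D3:**
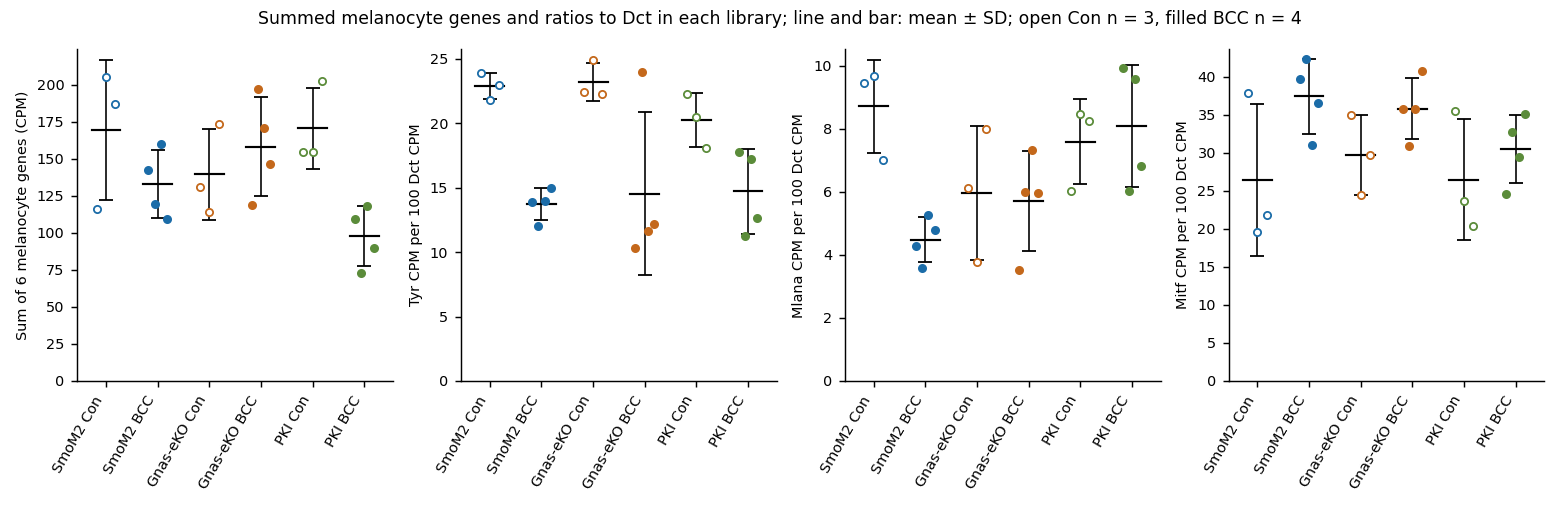
Summed CPM of the 6 melanocyte genes, and CPM of Tyr, Mlana and Mitf per 100 CPM of Dct (y axes, from 0), in each library of the 6 groups (x axis), with the mean and SD of 3 open Con or 4 filled BCC points. For Tyr, 11 of the 12 BCC libraries lie below all 9 Con libraries, which span 18.1 to 24.9.

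Other pigment genes were read from 3 lists of 40 genes in all. The first held 10 further genes of the melanocyte lineage, of which 9, 10 and 9 were tested in SmoM2, Gnas-eKO and PKI. In SmoM2 0 were called higher and 4 lower, in Gnas-eKO 0 higher and 1 lower, and in PKI 1 higher (Rab32, 0.34) and 4 lower. Over all genes tested the shares called higher and lower were 16.2% and 13.5% for SmoM2, 1.46% and 0.165% for Gnas-eKO, and 18.7% and 15.8% for PKI. The list was chosen with earlier results of these data known, so its counts are not independent evidence. The 1 call in Gnas-eKO was Gpnmb. Ednrb, the endothelin receptor of melanocytes, fell in SmoM2 by 0.78 on the log2 scale (adjusted p = 0.0291 by edgeR), and in PKI it fell by 1.30 (adjusted p = 0.0182 by edgeR). Slc24a5, a melanosome ion exchanger, fell by 0.92 in SmoM2 (adjusted p = 0.0128 by edgeR), and in PKI it fell by 1.05 (adjusted p = 0.0111 by edgeR), and the channel gene Trpm1 fell by 0.70 in PKI (edgeR adjusted p = 0.0467). Sox10, which activates Mitf, had a log2 fold change of -0.81 in PKI that missed the threshold (edgeR adjusted p = 0.064), as did Oca2 at -0.94 (0.0517). Gpnmb, a glycoprotein of melanosomes and lysosomes, was called lower in all 3 models (-2.30, -1.95 and -2.02), though 0 genes at all were called in Gnas-eKO without Con replicate 1 or without Con replicate 2, so that call was lost there. Its Con mean was 218, 193 and 213.5 CPM in SmoM2, Gnas-eKO and PKI, against 3.62, 2.85 and 3.23 CPM for Sox10. Which cells gave the Gpnmb RNA was not tested. Rab38, a trafficking GTPase, was called lower in SmoM2 (-0.28). The median of this list was -0.69 for SmoM2, -0.07 for Gnas-eKO and -0.81 for PKI.

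The second list held 18 genes of melanosome biogenesis and transport, most of which act in many cells, and all 18 were tested. In SmoM2 2 were called higher and 3 lower, in Gnas-eKO 0 in either direction, and in PKI 1 higher and 4 lower. These shares of 18 were near or below those of all genes in SmoM2 (16.2% higher, 13.5% lower) and in PKI (18.7% and 15.8%), so the counts are no result about the list. Myo5a, the motor that carries melanosomes to the cell edge, stood at 345 ± 20.6 CPM in SmoM2 Con (SD, n = 3) and fell in SmoM2 BCC by 0.94 on the log2 scale (adjusted p = 7.04e-06 by edgeR). Its partners Rab27a and Mlph fell in PKI by 0.51 (edgeR adjusted p = 0.0186) and 0.75 (edgeR adjusted p = 0.0296). In SmoM2 the log2 fold changes of Rab27a and Mlph were -0.11 and -0.14, and in PKI that of Myo5a was -0.44, all uncalled by edgeR. Slc7a11, the cystine transporter that affects red and yellow pigment, rose in PKI by a log2 fold change of 1.19 (adjusted p = 0.00253 by edgeR), from 7.53 ± 2.12 to 17.0 ± 2.49 CPM (SD, n = 3 and 4). Its Con level was 16.0 ± 1.63 CPM in SmoM2 and 16.1 ± 2.92 CPM in Gnas-eKO, where its log2 fold changes were -0.48 (edgeR adjusted p = 0.0505) and -0.86 (edgeR adjusted p = 0.0848). Lyst, a regulator of lysosome-related organelles, was lower in SmoM2 (-0.56) and PKI (-0.63). The other calls were Hps3 and Bloc1s6 (higher) and Atp7a (lower) in SmoM2, and Hps5 (lower) in PKI.

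The third list held 12 signals made around the melanocyte and their modifiers, of which 8 were tested in each model. In SmoM2 3 were called higher and 2 lower, in Gnas-eKO 1 higher and 0 lower, and in PKI 4 higher and 1 lower, beside 16.2% and 13.5%, 1.46% and 0.165%, and 18.7% and 15.8% of all genes. Edn1, an endothelin that acts on melanocytes and is made by keratinocytes, rose in all 3 models, by log2 fold changes of 4.58 in SmoM2 (edgeR adjusted p = 2.82e-07), 4.13 in Gnas-eKO (0.0371) and 2.40 in PKI (0.00184). The Gnas-eKO call was lost without Con replicate 1 or without Con replicate 2, where 0 genes were called. Its level was 2.27 ± 0.619 CPM in SmoM2 Con and 53.3 ± 5.87 CPM in SmoM2 BCC, and 2.58 ± 1.52 and 13.7 ± 2.87 CPM in PKI (SD, n = 3 and 4). Fgf2, a growth factor for melanocytes, rose in SmoM2 (4.73, edgeR adjusted p = 0.000502) and PKI (5.11, edgeR adjusted p = 7.75e-05). In Gnas-eKO its log2 fold change was 4.79 (edgeR, SE 0.99, adjusted p = 0.0534). Its Con levels were near the counting floor, so these sizes depend on few counts. Bmp4 moved in opposite directions, lower in SmoM2 by a log2 fold change of -1.30 (adjusted p = 0.0015 by edgeR) and higher in PKI by 1.02 (edgeR adjusted p = 0.00454). Foxn1, a keratinocyte factor that directs pigment transfer, was lower in SmoM2 (-1.59), and the melanocortin receptor gene Mc5r was lower in PKI (-1.40). F2rl1, a receptor through which keratinocytes take up melanosomes, was higher in SmoM2 (0.33) and PKI (0.52). Asip, which encodes the natural antagonist of Mc1r, was not a row of the count table and could not be tested.

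Without Gnas-eKO BCC replicate 2, more genes of these lists were called in Gnas-eKO, where 7.36% of all genes were then called higher and 4.43% lower. The lineage list had 0 higher and 1 lower (Gpnmb, -2.29), and the melanosome list 0 higher and 2 lower (Myo5a, -0.96, edgeR adjusted p = 0.0145, and Slc7a11, -0.98, edgeR adjusted p = 0.025). Of the signals, 2 were called higher (Edn1, 4.47, and Fgf2, 5.17, edgeR adjusted p = 0.00116) and 2 lower (Bmp4 and Foxn1). In that fit 3 of 6 keratinocyte markers were called lower (Krt5, Krt14 and Krt10), 5 of 6 fibroblast markers higher and 1 of 6 leukocyte markers lower (Itgam).

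**Figure D4:**
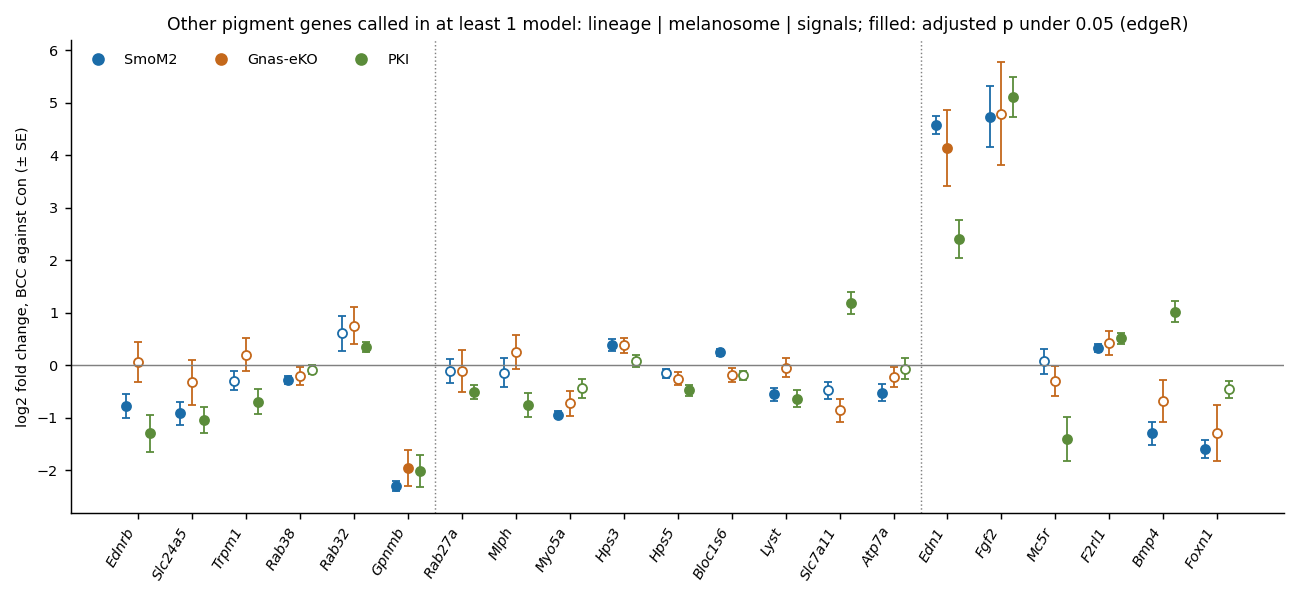
Log2 fold change of BCC against Con for the other pigment genes called in at least 1 model, by list from left to right (lineage, melanosome, signals; x axis, genes; y axis, log2 fold change with bars of SE), in SmoM2, Gnas-eKO and PKI; filled points were called by edgeR. Edn1 lies far above 0 in all 3 models, while Ednrb and Slc24a5 lie below 0 in SmoM2 and PKI.

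Across libraries of the same group the melanocyte genes varied together. After the mean of each group was taken off, the log2 CPM of Pmel and Dct followed the mean of the other melanocyte genes over the 21 libraries with Pearson's r of 0.91 and 0.90, and Tyr, Mlana, Tyrp1 and Slc45a2 with 0.84, 0.81, 0.81 and 0.68. Mc1r (0.64), Kit (0.50) and Mitf (0.48) followed less, and Kitl least, at 0.14. These values are descriptions over libraries that share batch and depth. Of 14635 other genes, the 10 most like the 6 melanocyte genes by the same measure were Trpm1 (0.86), Slc24a5 (0.80), Sox10 (0.77), Gm18119 (0.74), Oca2 (0.74), Fuca2 (0.72), Trpv3 (0.72), Syngr1 (0.70), Tyk2 (0.69) and Ednrb (0.68). Of these, Trpm1, Slc24a5, Sox10, Oca2 and Ednrb also stood on the lineage list.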

How the data were processed

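RNA from tail epidermis was measured by bulk RNA-seq in 21 libraries, 3 Con and 4 BCC in each of 3 models. The submitters' processing notes name bcl2fastq 2.20, cutadapt 1.18, STAR 2.7.0f and Partek with the build mm10, and a stranded mRNA preparation is given per the labels' protocols. Whether strand was used in counting is not given in the sources used here. The authors deposited estimated counts per gene (23713 genes, 33.1% of values not whole). They also deposited a normalized signal, described per the file headers as TMM-scaled, which served for an alternative only. Library totals were 16645858 to 22251132, and a floor of 3 counts is at most 0.189 CPM, covering counting error only.

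The rounded estimated counts went into edgeR 4.0.16 under R 4.3.3 (filterByExpr by group, TMM, robust quasi-likelihood fit), within each model, with Benjamini-Hochberg adjustment over all genes tested. SE is the absolute log2 fold change over the square root of F. Differences between models were interaction contrasts over 14 libraries. CPM are on TMM-scaled library sizes over all 21 libraries. Exon lengths and overlaps come from GENCODE M21 (GRCm38), with gene ends 1 base lower than deposited, and promoters from RefSeq. The fits were also run on simulated counts, and the outcome is not reported here. Alternatives were DESeq2 1.42.0, RLE factors, no filter, a joint fit, a replicate block, limma 3.58.1 on the deposited signal (pseudocounts 1 and 0.1) and leaving out each library. Within each group, no pair of libraries was alike within sampling noise. Members and lists were chosen with earlier results of these data known. Named genes were all 10 members, listed pigment genes called in at least 1 model, and the 10 most correlated genes. Other names (Sox10, Oca2 and single cell type markers) were chosen after their values were seen.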

Additional observations from a re-analysis of the deposited data

Results flagged for a closer look

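In 4 instances the effect of BCC against Con differed between models by the test of the difference itself (edgeR interaction contrast, 14 libraries each). These are 2 of 10 genes for PKI minus SmoM2, below the 24.9% of all genes called there, and 2 of 10 for PKI minus Gnas-eKO, where 9.06% of all genes were called. Kitl differed by -0.89 and Mitf by -0.84 on the log2 scale between PKI and SmoM2, with the lower value in PKI. Dct differed by -1.17 and Mitf by -1.20 between PKI and Gnas-eKO, again with the lower value in PKI. Model, batch and day after induction cannot be told apart in these differences. For the levels of the 10 genes in the 4 BCC libraries of each model, 30 sets of 4 values in all, Dixon's criterion marked none.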

How the results depend on the processing

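The replicate numbers were not shown to pair the samples: correlations between same-numbered libraries averaged -0.10 for SmoM2, 0.09 for Gnas-eKO and 0.11 for PKI, and not every pair was above 0.1. With the replicate block, 3428 genes were called in SmoM2 (4860 without it), 135 in Gnas-eKO (267) and 5988 in PKI (5653). Under the replicate block Mlana in SmoM2 missed the threshold (edgeR adjusted p = 0.067), and the uncalled values of Kitl in SmoM2 (-0.05) and Tyrp1 in Gnas-eKO (-0.02) changed sign. In Gnas-eKO the number of called genes was 1535 by DESeq2, 2644 in the joint fit, 0 to 1910 with 1 library left out, the highest without BCC replicate 2.

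Of the 10 members, the joint fit called 1 in Gnas-eKO (Mitf) where 0 were called otherwise. With 1 library left out, the members called ranged from 2 to 5 in SmoM2, the most without Con replicate 1 (Dct and Pmel added), from 5 to 8 in PKI, the fewest without Con replicate 3 and the most without BCC replicate 3, and from 0 to 3 for the difference of PKI minus Gnas-eKO. Leaving out 1 library also changed the sign of uncalled values in SmoM2 for Kitl (-0.07 to 0.11) and Tyrp1 (-0.40 to 0.07). It did so in Gnas-eKO for Pmel (-0.15 to 0.24), Tyr (-0.64 to 0.02) and Tyrp1 (-0.11 to 0.28). The cause was not tested. Over single genes and settings, 457 values kept direction and side of the threshold, 14 lost a call, 5 gained one and 12 changed sign. Slc45a2, with as few as 15 counts in a library, had the least depth.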

Other observations

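Markers of other cells near the melanocyte, not described above, moved in the same tumours. Ngfr, a neurotrophin receptor gene listed for Schwann cells and also expressed in other neural crest cells and keratinocytes, was lower in BCC in SmoM2 (11.1 ± 1.72 to 1.95 ± 0.242 CPM, SD, n = 3 and 4, log2 fold change -2.49, edgeR adjusted p = 1.04e-05). It was also lower in PKI (19.2 ± 3.87 to 6.47 ± 1.66 CPM, log2 fold change -1.55, edgeR adjusted p = 0.000851). Ncam1, a further gene of the Schwann cell list, was higher in SmoM2 BCC by a log2 fold change of 2.38 (adjusted p = 0.000384 by edgeR) and in Gnas-eKO BCC by 2.65 (adjusted p = 0.0202 by edgeR). The latter call was lost without Gnas-eKO Con replicate 1 or without Con replicate 2, where 0 genes were called. Of the Merkel cell list, Krt8, a keratin also found in simple epithelia, was called lower in SmoM2 (-0.67) and in PKI (-1.43), while its partner Krt18 was uncalled, at 0.29 and 1.05.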
